A study of Homo sapiens with 4 samples.

Results

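PRMT3, the ribosomal protein gene RPS2, the genes of the other RPS2 binders PDCD2, PDCD2L and ZNF277, and EPB41L3, which encodes an inhibitor of PRMT3, were followed in the RNA-seq counts of U251 GBM cells. These 6 genes were picked by name from the 15575 genes of the count table, for what their proteins are known to bind. The choice was made with earlier results of these data known. The experiment compared 2 libraries labelled Ctrl, with a control shRNA in a lentivirus (pGreen in the titles), and 2 libraries labelled PRMT3-KD, with a lentiviral shRNA against PRMT3, both 72 h after transduction. U251 is an established human glioblastoma line, and both groups carried a lentivirus. Which PRMT3 hairpin was used for these libraries is not given in the sources used here, and no source says that the libraries of a group came from separate cultures. The p-values therefore measure only the spread between these libraries, which may be technical.

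PRMT3 is a cytosolic protein arginine methyltransferase that places asymmetric dimethyl marks on arginines, and its best known substrate is RPS2 (uS5), a protein of the small (40S) ribosomal subunit. RPS2 is bound through the zinc finger of PRMT3, and ZNF277, another zinc finger protein, can occupy RPS2 in place of PRMT3. PDCD2 is a chaperone that takes up RPS2 while it is being translated, its paralog PDCD2L travels with RPS2 on pre-40S particles, and the tumour suppressor EPB41L3 (protein 4.1B, DAL-1) binds PRMT3 and inhibits its activity.

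The arginines that PRMT3 methylates in RPS2 lie in a stretch rich in arginine and glycine near the start of the protein. The codons of that stretch, 22 to 52 of the 293 codons of RPS2, lie in exon 2 at chr16:2014471-2014563 (GRCh37, minus strand), and are shown with each arginine codon that is followed directly by a glycine codon, and that glycine codon, in capitals.
RPS2 arginine-glycine codons: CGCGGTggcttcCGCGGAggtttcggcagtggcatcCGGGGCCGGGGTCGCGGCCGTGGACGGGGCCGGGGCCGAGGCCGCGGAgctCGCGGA
This stretch held 11 of the 15 such pairs in RPS2. The other 40S ribosomal protein genes had at most 5 pairs, with a median of 1, and 0.988% of the 12656 tested genes with a complete coding sequence had 15 or more. The codons of the zinc finger of PRMT3, 50 to 71 of its 531, run from chr11:20409684-20409700 in exon 2 into chr11:20411290-20411338 in exon 3 (GRCh37, plus strand). They are shown because this finger is the part of PRMT3 that meets RPS2, with the 4 codons for its paired cysteines and histidines in capitals.
PRMT3 zinc finger codons: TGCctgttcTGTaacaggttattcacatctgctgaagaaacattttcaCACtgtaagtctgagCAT
The pattern searched was a pair of cysteine codons with 2 to 4 codons between them, then 12 codons, then a pair of histidine codons with 3 to 5 codons between them. It was found in 5.64% of those 12656 genes. Among the 6 genes, PRMT3 had 1 match and ZNF277 had 4, of which a pair overlapped, while the other 4 genes had 0.

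Total counts per library were between 24804250 and 29756313. Of the 15575 genes, 13172 passed the filter on low counts, and all 6 genes were among them. The 2 Ctrl libraries differed by little more than counting error, since a chi-square test of their counts gave 1.41 times its degrees of freedom (13172 genes), and the same quotient was 70.7 (13171 genes) between the 2 PRMT3-KD libraries. Between PRMT3-KD and Ctrl, 10.9% of the tested genes passed the threshold, a more than 1.5-fold change with an adjusted p under 0.05 in edgeR's quasi-likelihood test, and 5.97% passed it with lower expression in PRMT3-KD. An adjusted p under 0.05 without regard to the size of the change was found for 17.3% of them, and in 67.1% the libraries of the groups did not overlap. The glial tumour markers VIM, NES, CD44 and SOX2 were present in every library and S100B was between 1.93 and 2.82 CPM, while GFAP was at 13.1 and 14.2 CPM in Ctrl but 1.26 and 5.39 CPM in PRMT3-KD libraries 1 and 2. Of 12 markers of other cells, 4 were above 5 CPM in every library, and the 12 summed to 113 and 118 CPM in Ctrl, 124 CPM in PRMT3-KD library 1 and 276 CPM in library 2. KRT18 (epithelium) was higher in both PRMT3-KD libraries, with 74.1 and 98.2 CPM against 32.4 and 34.1 CPM. COL1A1 and PDGFRB (fibroblasts) and CDH5 (endothelium) were highest in PRMT3-KD library 2, at 113, 35.9 and 25.4 CPM, against at most 58.8, 15.9 and 5.31 CPM in the other libraries. The fibroblast markers are also expressed by mesenchymal cell lines, and COL1A1 was at 55.7 and 58.8 CPM in Ctrl. The part of these markers in the results was not tested.

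Of the 6 genes, PRMT3 alone passed the threshold. It is the targeted gene, so its part in the counts below was set by the design. EPB41L3 had an adjusted p under 0.05 with a change of under 1.5-fold, and the other 4 genes had neither. In 4 of the 6 genes (PRMT3, RPS2, ZNF277 and EPB41L3) both PRMT3-KD libraries lay below both Ctrl libraries, beside 33.8% of all tested genes with that order. In the other 2 genes the groups overlapped, beside 67.1% of all tested genes whose groups did not overlap in either direction. Expression is given as CPM (counts relative to the total of the library, corrected by edgeR's TMM factors), with the SD over 2 libraries.

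**Figure D1:**
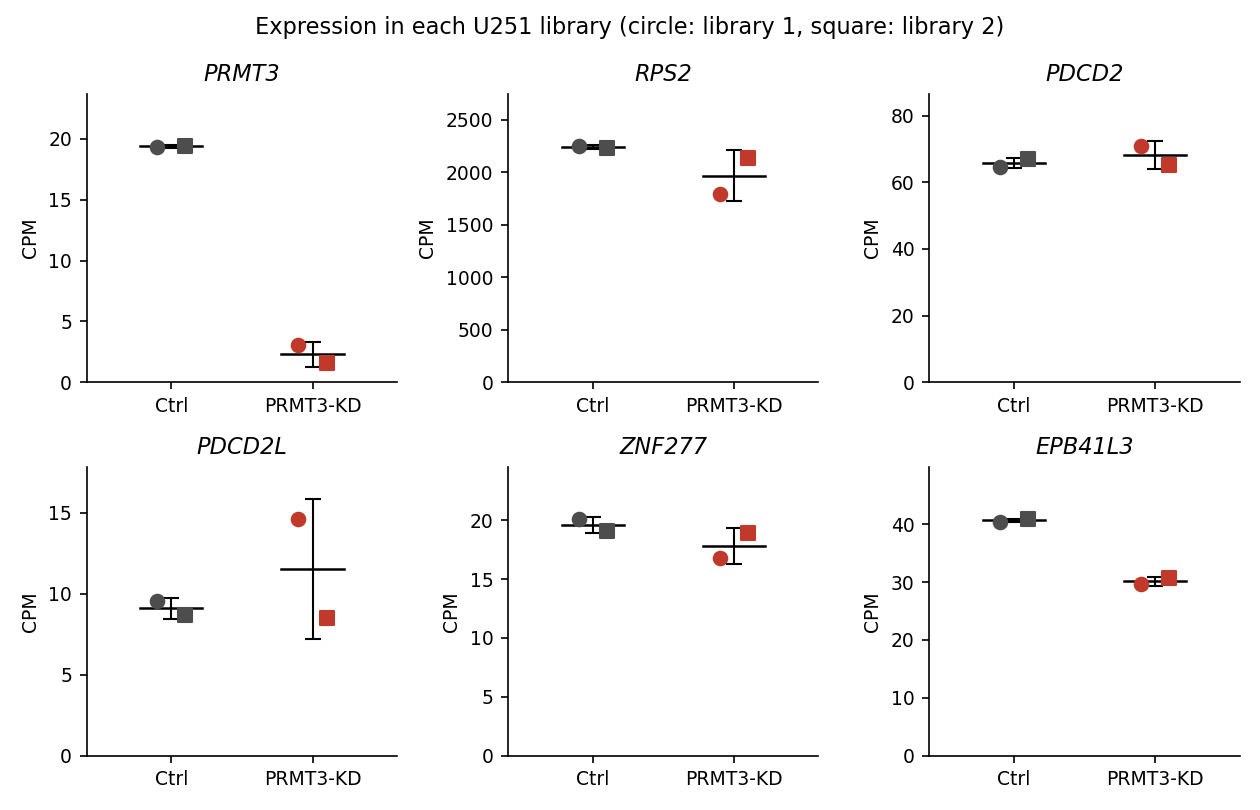
Expression of the 6 genes in CPM in the 2 Ctrl libraries (grey) and the 2 PRMT3-KD libraries (red), with circles for library 1, squares for library 2, horizontal lines for the group means and bars for the SD (n = 2). PRMT3 dropped from 19.4 to 2.31 CPM, EPB41L3 lay near 40.7 CPM in Ctrl and near 30.1 CPM in PRMT3-KD, and the PRMT3-KD library 1 stood apart for PDCD2L with 14.6 CPM.

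PRMT3 (ENSG00000185238, chromosome 11 of GRCh37 from 20409104 to 20530884, plus strand, 16 exons) is the gene the hairpin targets, so its level checks the labels. It had 535 counts in each Ctrl library, 77 counts in PRMT3-KD library 1 and 45 counts in PRMT3-KD library 2. Both knockdown libraries were far below both controls, as their labels say. Expression was 19.4 ± 0.0998 CPM in the controls against 2.31 ± 1.02 CPM in PRMT3-KD (SD, n = 2 each), and the log2 fold change was -3.08 with a standard error of 0.314 and a 95% interval from -3.92 to -2.24 (adjusted p = 0.0177, edgeR quasi-likelihood test, Benjamini-Hochberg). In bulk RNA, fewer cells with the transcript and less transcript per cell cannot be told apart, and all the values below share this limit.

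The knockdown was deeper in one library than in the other. PRMT3-KD library 1 kept 15.6% of the Ctrl level (95% counting interval 12.2% to 19.7%), and PRMT3-KD library 2 kept 8.17% (5.93% to 11.0%). Library 2 thus had 52.3% of the PRMT3 of library 1, with an interval of 35.4% to 76.5% that covers counting error only. Among the 13172 tested genes, 4 had a lower log2 fold change than PRMT3, and among the 10556 that averaged 5 CPM or more there were 0. The nearest tested gene at higher coordinates, FANCF, lies 2113 kb away and had a log2 fold change of 0.01 (adjusted p = 0.956, edgeR). HTATIP2, 3.78 kb away on the other side, had 1 to 3 counts in each library and was not tested.

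RPS2 (ENSG00000140988, chromosome 16 from 2012059 to 2014842, minus strand, 7 exons), the substrate whose arginine codons are shown above, was the most abundant of the 6 genes. The Ctrl libraries held 2252 and 2227 CPM, PRMT3-KD library 1 held 1794 CPM and library 2 held 2138 CPM. Both PRMT3-KD values lay below both Ctrl values, library 1 by much more than library 2. The group levels were 2239 ± 18.2 CPM for Ctrl and 1966 ± 243 CPM for PRMT3-KD (SD, n = 2 each), and the log2 fold change of -0.19 (95% interval -0.48 to 0.10, standard error 0.108) did not pass the threshold (adjusted p = 0.279, edgeR). The interval leaves room for a level between 0.719 and 1.07 times that of Ctrl. It rests on a spread shared by both groups, although the PRMT3-KD libraries differed far more than the Ctrl libraries, so it does not exclude levels outside these bounds. PRMT3-KD library 1, with the shallower loss of PRMT3, was at 80.1% of the Ctrl level of RPS2 (counting interval 79.2% to 81.0%). Library 2, with the deeper loss, was at 95.5% (94.6% to 96.4%). A link between the depth of the loss and the level of RPS2 was not tested.

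Within the 40S subunit, RPS2 ranked first of the 33 ribosomal protein genes by CPM per kilobase of its canonical transcript in Ctrl, with 2370 CPM per kilobase against a median of 558 for the other 32. Some of these canonical transcripts have long untranslated 3′ ends, such as 2792 bases for RPS23, which was at 138 CPM per kilobase. Whether U251 uses these transcripts was not tested, so the size of this gap is uncertain. Its share of the counts of the 33 genes was 13.2% and 13.3% for the Ctrl libraries, 11.0% for PRMT3-KD library 1 and 12.9% for library 2. The ratio of RPS2 counts to the summed counts of the other 40S genes, which does not depend on how libraries are scaled, was 0.153 in each Ctrl library, 0.124 in PRMT3-KD library 1 and 0.148 in library 2. This difference of -0.18 on the log2 scale had p = 0.33 in an exact two-sided permutation test, the smallest p that 2 libraries against 2 can give. By log2 fold change RPS2 was 6th from the lowest of the 33, being 4th from the lowest in library 1 and 16th in library 2, while the median of the other 32 was -0.0080.

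**Figure D2:**
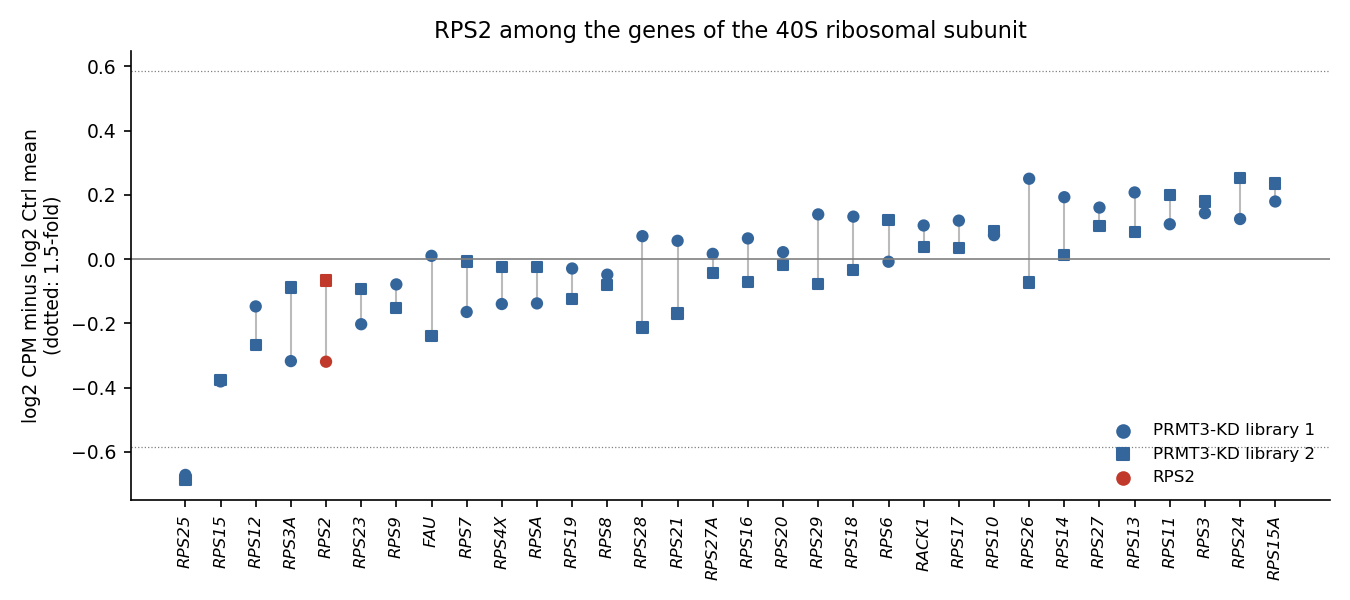
Difference from the Ctrl mean (log2 CPM, vertical axis) of 32 genes of 40S ribosomal proteins (horizontal axis, ordered by log2 fold change) in PRMT3-KD library 1 (circles) and library 2 (squares), with RPS2 in red and dotted lines at 1.5-fold. RPS2 was at -0.32 in library 1 and -0.07 in library 2, and RPS25 alone lay beyond the dotted line.

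Reads of RPS2 can be shared with processed copies of the gene. The annotation lists 25 RPS2 pseudogenes by symbol, of which 5 are in the count table. Their counts came to between 6.31% and 6.73% of those of RPS2 over the 4 libraries. Most of these counts stood on RPS2P5, with 3869 and 3879 counts in Ctrl and 2915 and 3979 in PRMT3-KD, where library 1 was again the lowest (log2 fold change -0.14, adjusted p = 0.440, edgeR). How the counting divided reads between RPS2 and these copies is not given in the sources used here, and reads on the other copies were not measured, so the level of RPS2 is uncertain by an amount these counts do not bound. The genes on either side start or end close to RPS2 on the opposite strand, and whether strand was used in the counting is not given either. NDUFB10, a subunit of respiratory complex I that lies 82 bases away, had a log2 fold change of 0.07 (adjusted p = 0.604, edgeR), and the noncoding SNHG9, 53 bases away, was at 0.09 (adjusted p = 0.878, edgeR).

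Of the 33 genes of 40S ribosomal proteins, 0 passed the threshold with higher expression and 1 with lower expression, and their median log2 fold change was -0.014 beside 0.0055 over all tested genes. RPS25, a surface protein of the small subunit that is needed for some internal ribosome entry sites, fell from 217 ± 0.861 to 135 ± 0.983 CPM, which is -0.68 on the log2 scale (standard error 0.0662, adjusted p = 0.0172, edgeR). RPS15, which lies near the decoding site, was at -0.38, with an adjusted p under 0.05 but a change of under 1.5-fold (adjusted p = 0.0323, edgeR). The share of the 33 genes past the threshold, 3.03%, was below the 10.9% of all tested genes.

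PDCD2 (ENSG00000071994, chromosome 6 from 170884383 to 170893780, minus strand, 6 exons), the chaperone of newly made RPS2, had 64.7 and 66.8 CPM in Ctrl, 71.0 CPM in PRMT3-KD library 1 and 65.1 CPM in library 2. The groups overlapped, since PRMT3-KD library 2 lay between the Ctrl libraries. The means were 65.7 ± 1.52 and 68.1 ± 4.16 CPM (SD, n = 2 each), which gave a log2 fold change of 0.05 with a 95% interval from -0.17 to 0.27 (adjusted p = 0.698, edgeR). The interval lies within a 1.5-fold change in either direction. It rests on a spread shared by both groups, although the PRMT3-KD libraries differed far more than the Ctrl libraries, so it does not exclude such a change. Its neighbour TBP, which starts the assembly of transcription complexes and ends 2.42 kb from PDCD2, had a log2 fold change of -0.16 (adjusted p = 0.340, edgeR).

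PDCD2L (ENSG00000126249, chromosome 19 from 34895304 to 34917073, plus strand, 7 exons), the paralog found on pre-40S particles, varied more between the PRMT3-KD libraries than between the groups. It had 9.56 and 8.65 CPM in Ctrl, 14.6 CPM in PRMT3-KD library 1 and 8.48 CPM in library 2. Library 1 was the highest of the 4 and library 2 the lowest, so the groups overlapped. As shares of the Ctrl level these were 160% (counting interval 140% to 184%) and 93.1% (79.5% to 109%). The means of 9.11 ± 0.645 and 11.5 ± 4.33 CPM (SD, n = 2 each) gave a log2 fold change of 0.34 with a 95% interval from -0.44 to 1.11 (adjusted p = 0.450, edgeR), and the sign rested on library 1. Without PRMT3-KD library 1 the log2 fold change was -0.10, and without library 2 it was 0.68.

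The ratio of PDCD2 to PDCD2L counts was 6.76 and 7.72 in Ctrl and 4.86 and 7.68 in PRMT3-KD libraries 1 and 2. The groups overlapped, and the log2 difference of -0.24 had p = 0.667 in an exact two-sided permutation test. Both neighbours of PDCD2L lie on the same strand within 3 kb. GPI, a glycolytic enzyme gene that ends 1985 bases before PDCD2L, fell from 509 ± 3.40 to 325 ± 45.2 CPM (log2 fold change -0.65, adjusted p = 0.0339, edgeR). UBA2, a subunit of the SUMO activating enzyme whose gene starts 2183 bases after PDCD2L, was at -0.41 (adjusted p = 0.0469, edgeR), under 1.5-fold. Neither neighbour was above Ctrl in PRMT3-KD library 1 as PDCD2L was. In counts not scaled by library total, GPI had 7445 there against 14168 and 13933 in Ctrl, and UBA2 had 4619 against 6402 and 6165.

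ZNF277 (ENSG00000198839, chromosome 7 from 111846750 to 111983989, plus strand, 12 exons), the zinc finger protein that competes for RPS2, had 20.1 and 19.1 CPM in Ctrl, 16.8 CPM in PRMT3-KD library 1 and 18.9 CPM in library 2. The PRMT3-KD libraries were the lower ones, but library 2 was next to the lower Ctrl library. With 19.6 ± 0.693 CPM for Ctrl and 17.8 ± 1.51 CPM for PRMT3-KD (SD, n = 2 each), the log2 fold change was -0.14 with a 95% interval from -0.43 to 0.16 (adjusted p = 0.427, edgeR). In library 2 it was at 96.4% of Ctrl, and the counting interval of 86.7% to 107% holds the Ctrl level. DOCK4, which lies 287 bases from ZNF277 on the opposite strand, had a log2 fold change of 0.51 (adjusted p = 0.110, edgeR), and IFRD1, 79.0 kb away on the other side, was at 0.41 (adjusted p = 0.182, edgeR).

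EPB41L3 (ENSG00000082397, chromosome 18 from 5392380 to 5630699, minus strand, 23 exons), the inhibitor of PRMT3, was the gene besides PRMT3 with a difference larger than the spread between libraries. It had 40.5 and 40.9 CPM in Ctrl, 29.6 CPM in PRMT3-KD library 1 and 30.7 CPM in library 2. Both PRMT3-KD libraries were low by nearly the same amount, at 72.7% (counting interval 66.9% to 79.0%) and 75.5% (69.7% to 81.6%) of the Ctrl level. The log2 fold change from 40.7 ± 0.312 to 30.1 ± 0.775 CPM (SD, n = 2 each) was -0.43 (SE 0.0816, 95% interval -0.65 to -0.21, adjusted p = 0.0369, edgeR), which is under 1.5-fold, so that EPB41L3 did not pass the threshold. Its adjusted p was 0.0812 with the replicate number as a block (edgeR), 0.0449 in limma-voom with group weights and 0.0374 in DESeq2, and without Ctrl library 1 or 2 it was 0.445 and 0.453 (edgeR). An adjusted p under 0.05 was found for 2 of the 6 genes, PRMT3 and EPB41L3, beside 17.3% of all tested genes. PRMT3 is the targeted gene, so its part in this count was set by the design.

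**Figure D3:**
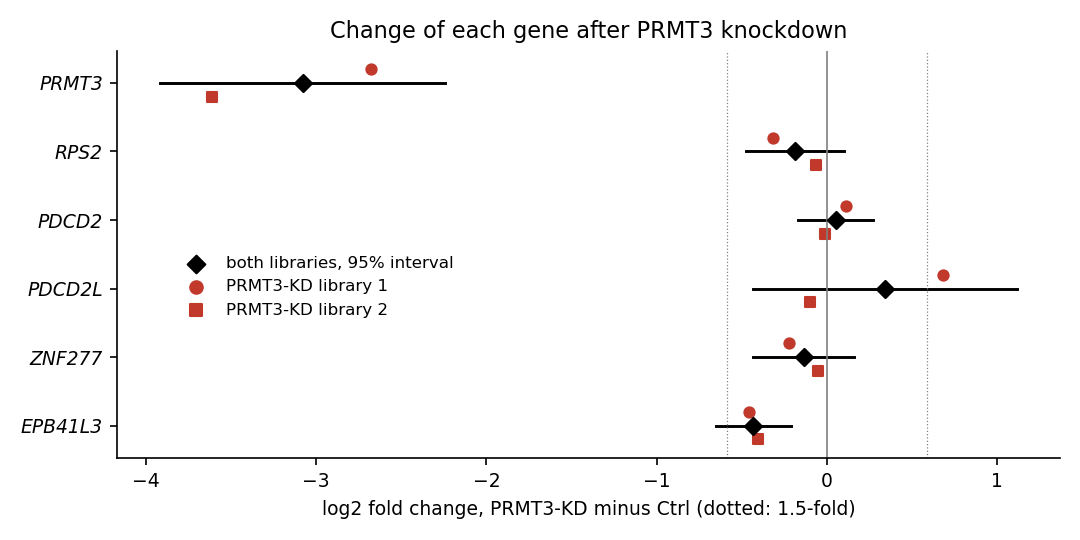
Log2 fold change of PRMT3-KD against Ctrl (horizontal axis) for the 6 genes, with black diamonds for the fit to both libraries, black lines for its 95% interval, red circles and squares for PRMT3-KD libraries 1 and 2 against the Ctrl mean, and dotted lines at 1.5-fold. The intervals of PRMT3 (-3.92 to -2.24) and EPB41L3 (-0.65 to -0.21) leave out 0, and the libraries lie on opposite sides of 0 for PDCD2 and PDCD2L.

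PRMT3 was also set against its substrate and its inhibitor within each library. There were 8.57 and 8.74 PRMT3 counts per 1000 RPS2 counts in Ctrl, and 1.69 and 0.741 in PRMT3-KD libraries 1 and 2. There were 0.477 and 0.476 PRMT3 counts per EPB41L3 count in Ctrl, and 0.102 and 0.0516 in the PRMT3-KD libraries. Both ratios were lower in each PRMT3-KD library than in each Ctrl library, by -2.95 and -2.71 on the log2 scale (exact two-sided permutation p = 0.33 for each, the smallest possible). These 2 ratios were added after the values of the single genes were seen. PRMT3 is the gene the hairpin targets, so the fall of both ratios was set by the knockdown and is not a separate result.

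Levels were compared between genes only per length of the canonical transcript, and the order in Ctrl began with RPS2 at 2370 ± 19.2 CPM per kilobase. PDCD2 followed at 19.6 ± 0.452, then EPB41L3 at 9.12 ± 0.0700 CPM per kilobase (SD, n = 2). PDCD2L at 7.87 ± 0.557, ZNF277 at 7.60 ± 0.269 and PRMT3 at 7.59 ± 0.0391 CPM per kilobase had overlapping libraries and could not be ordered. In PRMT3-KD, RPS2 at 2081 ± 257 and PDCD2 at 20.3 ± 1.24 CPM per kilobase came first again. PDCD2L at 9.98 ± 3.74, ZNF277 at 6.91 ± 0.585 and EPB41L3 at 6.76 ± 0.174 CPM per kilobase followed, of which ZNF277 and EPB41L3 had overlapping libraries, while the lower PDCD2L library and the higher ZNF277 library both stood at 7.33. PRMT3 was last by a wide margin at 0.904 ± 0.401 CPM per kilobase, with 1.19 in library 1 and 0.621 in library 2.

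The factors that bring 40S precursors through their last steps were described as a list of 17 genes, all tested. Of these, 0 passed the threshold with higher expression and 1 (5.88%) with lower expression, close to the 5.97% of all tested genes, with a median log2 fold change of 0.082 beside 0.0055. PNO1, a placeholder that keeps the end of the 18S rRNA from being cut too early, had 37.5 and 39.0 CPM in Ctrl, 20.7 CPM in PRMT3-KD library 1 and 13.5 CPM in library 2. Both PRMT3-KD values were low, and PNO1 fell from 38.3 ± 1.09 to 17.1 ± 5.08 CPM (log2 fold change -1.17, standard error 0.222, adjusted p = 0.0375, edgeR). The largest changes that did not pass were those of the kinase RIOK2 at 0.55 and of the 18S rRNA methyltransferase WBSCR22 (BUD23) at 0.48 (adjusted p = 0.0931 and 0.197, edgeR). LTV1, an export adaptor of pre-40S particles, and CSNK1D, the kinase that releases it, were at 0.41 and 0.33 with an adjusted p under 0.05 but under 1.5-fold (0.0499 and 0.0425, edgeR).

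Chaperones and nuclear carriers of ribosomal proteins gave 0 of 13 genes past the threshold by edgeR, beside 10.9% of all tested genes. By DESeq2 and by limma-voom with group weights 1 of the 13 passed, beside 1834 and 1690 of the 13172 tested genes. An unadjusted p under 0.05 was found for 6 of the 13, beside 37.6% of all tested genes, and the median log2 fold change was 0.082. Their largest change was that of GRWD1, a chaperone of RPL3, with 85.2 and 90.1 CPM in Ctrl and 59.9 and 42.4 CPM in PRMT3-KD (log2 fold change -0.78, adjusted p = 0.0545, edgeR). The importin gene IPO5 was at -0.47, KPNB1 (importin beta) at -0.38 and TNPO1 (transportin) at 0.39, each with an adjusted p under 0.05 and under 1.5-fold (0.0319, 0.0393 and 0.0319, edgeR). The carriers thus did not share a direction.

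A list of 8 other proteins known or proposed as substrates or partners of PRMT3 had 6 tested genes, and IGF2BP1 and ALDH1A1, with at most 5 counts in any library, were under the filter. Of the 6, 3 passed the threshold, all lower, beside 5.97% of all tested genes, and the median log2 fold change was -0.56 beside 0.0055. HIF1A, the oxygen-regulated transcription factor subunit, had 738 and 729 CPM in Ctrl, 196 CPM in PRMT3-KD library 1 and 289 CPM in library 2 (log2 fold change -1.60, adjusted p = 0.0204, edgeR). PABPN1, the nuclear poly(A) binding protein, fell from 153 ± 1.83 to 86.8 ± 1.07 CPM (log2 fold change -0.82, adjusted p = 0.0143, edgeR), and the glycolytic enzyme gene GAPDH had a log2 fold change of -0.68 (adjusted p = 0.0326, edgeR). The splicing factor HNRNPA1 was at -0.44, under 1.5-fold (adjusted p = 0.0412, edgeR), while VHL, the ubiquitin ligase subunit that recognises HIF1A, was at 0.46 and the RNA methyltransferase subunit METTL14 at 0.28 (adjusted p = 0.127 and 0.194, edgeR). HIF1A and GAPDH are genes that the study itself picked out in these libraries, so the 3 of 6 is not independent evidence of a direction.

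**Figure D4:**
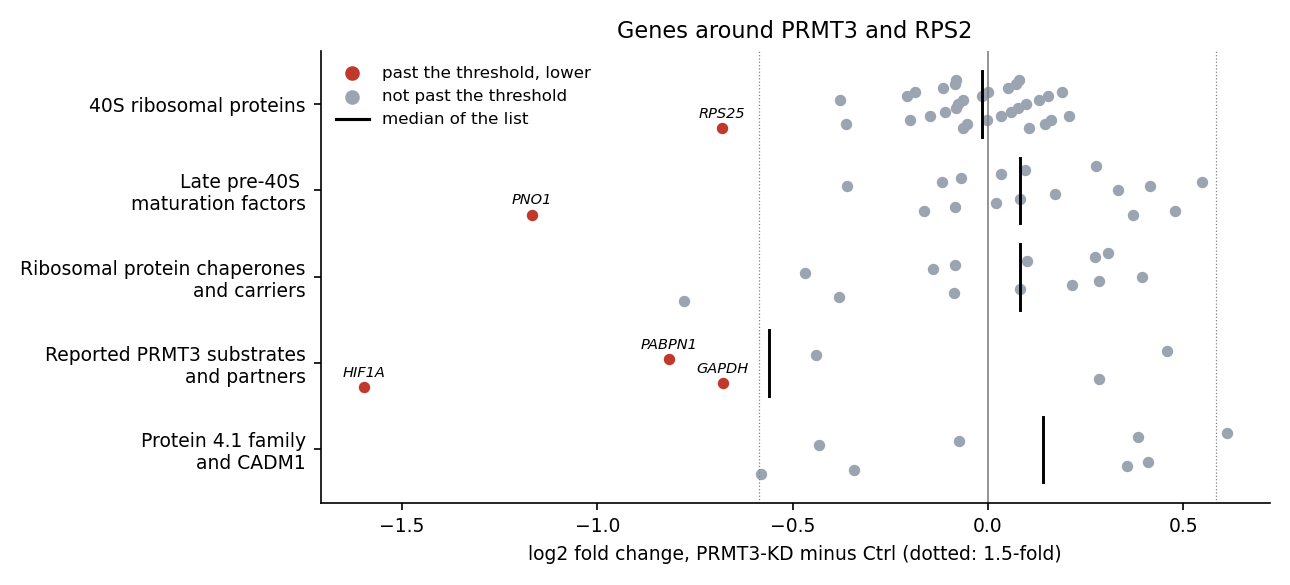
Log2 fold change of PRMT3-KD against Ctrl (horizontal axis) for each tested gene of the 5 lists, with red for genes past the threshold, grey for the others, black bars for the median of each list and dotted lines at 1.5-fold. RPS25, PNO1, HIF1A, PABPN1 and GAPDH were past the threshold, all lower, and the medians lay between -0.56 and 0.14.

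The relatives of EPB41L3 and the adhesion protein CADM1, to which EPB41L3 links the cytoskeleton, made a list of 8 genes, EPB41L3 included. By edgeR 0 of them passed the threshold, beside 10.9% of all tested genes, with 3 at an unadjusted p under 0.05, beside 37.6%. The count was also 0 by DESeq2 and by limma-voom with group weights, beside 1834 and 1690 of the 13172 tested genes. The median log2 fold change was 0.14, with 4 genes above 0 and 4 below. EPB41L1 had 22.9 and 23.8 CPM in Ctrl, 27.0 CPM in PRMT3-KD library 1 and 44.3 CPM in library 2 (log2 fold change 0.61, adjusted p = 0.164, edgeR), and EPB41L4A was at -0.58 (adjusted p = 0.0934, edgeR). EPB41L3 was the gene of this list with an adjusted p under 0.05. Its nearest tested neighbours were lower as well, with TMEM200C, 251371 bases away, at -0.74 (adjusted p = 0.0207, edgeR) and ZBTB14, 95.3 kb away, at -0.43 (adjusted p = 0.104, edgeR).

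The genes whose profile over the 4 libraries was nearest to that of PRMT3 were GLO1, E2F2, LMNB2, HMGB2 and IL10RB. The measure was the Euclidean distance between the log2(CPM + 0.5) values, each less its Ctrl mean, over the 10556 genes that averaged 5 CPM or more, and the distances were 0.245, 0.835, 0.847, 1.18 and 1.25. GLO1, which detoxifies methylglyoxal, had 183 and 184 CPM in Ctrl, 32.6 CPM in PRMT3-KD library 1 and 22.3 CPM in library 2, so that library 2 was the lower one, as it was for PRMT3. This was also the case for E2F2, LMNB2 and HMGB2, a cell cycle transcription factor, a lamin and a chromatin protein, whereas the receptor gene IL10RB had its lower value, 3.31 CPM, in library 1. The nearness was read from the same libraries that define it and carries no test.

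**Figure D5:**
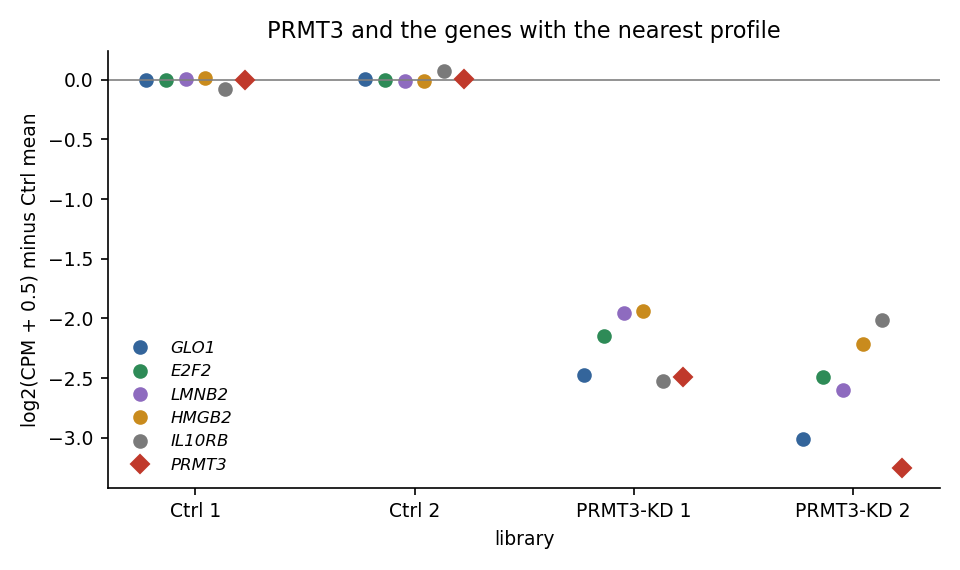
Log2(CPM + 0.5) less the Ctrl mean (vertical axis) in each of the 4 libraries (horizontal axis) for PRMT3 (red diamonds) and the 5 genes with the nearest profile (circles). In PRMT3-KD library 2 PRMT3 was at -3.25 and GLO1 at -3.01, and the other 4 genes lay between -2.60 and -2.01.

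The transcripts of these genes and of PRMT3 share the letters CAGCTCA. These letters were picked with earlier results of these data known, and the 5 nearest genes were picked from the same libraries. The match is therefore a description, and the shares given below do not make it a test. PRMT3 has 1 copy, in its coding sequence in exon 7 (chr11:20419216-20419240, plus strand, for the 25 bases shown), and 0 copies in its 3′ UTR. The 5 nearest genes have copies in the 3′ UTR, where GLO1 has 2 (the first is shown) and the others 1 each, and E2F2, LMNB2 and IL10RB also have 2, 1 and 1 copies in the coding sequence, which are not shown. Each window is read 5′ to 3′ along the transcript from GRCh37, with the shared letters in capitals, and PDCD2 is shown as the 1 other gene of the 6 with a copy in the 3′ UTR.
PRMT3: tgtttatttCAGCTCAtacgggcat
GLO1, chr6:38644315-38644339, minus strand: ggcatcaatCAGCTCAactcaagat
E2F2, chr1:23834993-23835017, minus strand: ttgtcccttCAGCTCAgctgctctt
LMNB2, chr19:2429633-2429657, minus strand: cagaaagtgCAGCTCAagtcttaaa
HMGB2, chr4:174253136-174253160, minus strand: attcaagtgCAGCTCAatactagct
IL10RB, chr21:34669392-34669416, plus strand: aagggtggtCAGCTCAatgctacac
PDCD2, chr6:170885627-170885651, minus strand: atcccctagCAGCTCAcagttgaca
The unbroken run shared with PRMT3 around these letters was 9 bases in E2F2, 8 in GLO1 and IL10RB, and 7 in LMNB2, HMGB2 and PDCD2. The letters were searched on the transcript strand only. They stood in the 3′ UTR of 17.5% of the 12537 tested genes with 50 or more bases there. In the coding sequence they stood in 23.4% of 12656. These shares do not allow for length, and the 3′ UTRs of the 5 nearest genes had between 707 (HMGB2) and 3445 (E2F2) bases. ZNF277 has 1 copy in its coding sequence, and RPS2, PDCD2L and EPB41L3 have 0 copies in either. The 3′ UTRs of RPS2 and PDCD2L are only 43 and 51 bases long, so the absence there says little.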

How the data were processed

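RNA-seq libraries of U251 cells took their group (Ctrl or PRMT3-KD) and replicate number (1 or 2) from their titles. The authors deposited unnormalized counts, whole numbers per gene and library, made by alignment to hg19 with TopHat and counting with Cufflinks. Versions and the gene annotation are not given in the sources used here. One duplicate entry was removed. GENCODE 44 lifted to GRCh37 held 99.9% of the identifiers and gave positions, exons, canonical transcript lengths and transcript sequences.

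Counts were tested in R 4.3.3 with edgeR 4.0.16 (filterByExpr with a minimum count of 10 and a minimum total of 15, TMM factors, glmQLFit and glmQLFTest), with Benjamini-Hochberg adjustment across the 13172 genes kept. A gene passed the threshold with more than a 1.5-fold change at an adjusted p under 0.05. Total counts between 24804250 and 29756313 set the counting error, which is relatively largest for genes with few counts. Counting intervals (95%, exact binomial) cover counting error only, and the spread between the PRMT3-KD libraries comes on top of it. Ratios within a library were compared by an exact two-sided permutation test. The alternatives were DESeq2 1.42.0, limma-voom (limma 3.58.1) with group weights, upper-quartile factors, library totals, other filters, the replicate number as a block, no fold threshold and each library left out. The fits were tested on simulated data in which both groups had the same spread. That test does not cover the unequal spread of the Ctrl and PRMT3-KD libraries.

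The named genes were the 6 genes, the list members past the threshold (at most 6 per list) and the 2 largest changes among the others, the tested neighbours, and the 5 genes with the profile nearest to PRMT3. List members with an adjusted p under 0.05 and under 1.5-fold are named beside these, after their values were seen. The genes and lists were chosen with earlier results of these data known. Protein sequences were not used here. One listed 40S gene is counted in its list but is not reported here by itself. CD3E, PECAM1, EPCAM and RBFOX3, fixed as markers, were not analysed here.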

Additional observations from a re-analysis of the deposited data

How the results depend on the processing

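With the replicate number as a block, the log2 fold changes were -3.11 for PRMT3 (adjusted p = 0.0124, edgeR), -0.19 for RPS2, 0.05 for PDCD2, 0.30 for PDCD2L, -0.14 for ZNF277 and -0.43 for EPB41L3 (adjusted p = 0.0812), and 1464 genes passed the threshold instead of 1441. The deviations of libraries with the same number from their group means had a correlation of 0.058 across genes. The Ctrl libraries differed by little more than counting error, so this value cannot tell whether the numbers pair the libraries. No source used here says that they do, and the main fit left the block out. Over every test, scaling, filter and the block, PRMT3 lay between -3.15 and -3.07 and passed the threshold, the other 5 genes kept their direction and did not pass it, and the highest adjusted p of EPB41L3 was 0.0812 (the block). The count of genes past the threshold was 1834 by DESeq2, 1690 by limma-voom and 1275 with library totals only, where 40.9% were higher instead of 45.5%. Without a fold threshold it was 2278 over all genes, or 17.3% of those tested. It was then 3 of 33 for the 40S proteins, 3 of 17 for the pre-40S factors and 3 of 13 for the chaperones and carriers. For the substrates and partners it was 4 of 6, and for the 4.1 family 1 of 8. The chaperones and carriers had 1 with the block, DESeq2 and limma-voom.

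When 1 library at a time was left out, the log2 fold changes lay between -3.61 and -2.68 for PRMT3, -0.32 and -0.064 for RPS2, -0.0115 and 0.107 for PDCD2, -0.10 and 0.68 for PDCD2L, -0.23 and -0.051 for ZNF277, and -0.46 and -0.40 for EPB41L3. PDCD2 and PDCD2L reversed without PRMT3-KD library 1 (-0.0115 and -0.10), and PDCD2L passed the threshold without PRMT3-KD library 2 (0.68). The ratio of PDCD2 to PDCD2L also changed sign without PRMT3-KD library 1 (0.087). A group then has 1 library, assumed to vary like the other group. Without Ctrl library 1 or 2, only the spread of the PRMT3-KD libraries is left, and PRMT3 kept -3.08 and -3.07 with adjusted p = 0.0764 and 0.0604 (edgeR), while EPB41L3, at -0.44 and -0.43, had 0.445 and 0.453. The count over all genes was then 0, and it was 3066 and 2989 without PRMT3-KD library 1 or 2. It lay between 0 and 1 for the 40S proteins and for the chaperones and carriers, 0 and 3 for the pre-40S factors and for the 4.1 family, and 0 and 3 for the substrates and partners. Counting error was largest for PDCD2L and PRMT3, with 238 to 371 and 45 to 535 counts. For both genes the PRMT3-KD libraries also differed beyond counting error. Library 2 had 58.1% of the PDCD2L of library 1 (counting interval 49.2% to 68.5%) and 52.3% of its PRMT3 (35.4% to 76.5%).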
